A study of Homo sapiens with 16 samples.

Results

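The 9 genes MDM2, CDKN1A, PHLDA3, TP53I3, BAX, BBC3, FAS, ZMAT3 and TP53INP1, all known to be switched on directly by p53, were followed in HT1080 cells carrying an XIST transgene. They were chosen by name and were found in both deposited expression tables, among 22892 HiSeq and 25606 NextSeq genes kept. HT1080 is a human fibrosarcoma line known for loss of CDKN2A. Its derivatives here carried a constitutive Tet repressor and a full-length XIST cDNA, the X-inactivation RNA, in 1 FRT site on chromosome arm 1p, 8p or 12q. Doxycycline (DOX) given for 5 days induces the transgene, and No DOX libraries came from untreated cultures. The HiSeq table holds 1 No DOX and 2 DOX libraries of the 8p site, 1 DOX library of the 1p site, 1 DOX library of the 1p site with the empty pcDNA5 vector in place of XIST, and 1 DOX library of the 12q site. The NextSeq table holds 1 No DOX and 1 DOX library each of the 1p and the 12q site. Cells with a transgene were single-cell clones, and the 1p and 8p lines descend from another Tet repressor integration than the 12q line, so site and clone cannot be told apart in any comparison, nor parental subclone in those with 12q. By the methods the 8p DOX libraries came from 2 clones, which the labels do not tell apart, and the labels give the 1p No DOX and DOX libraries of the NextSeq table different names (1A and 2A). Where nothing says that libraries came from separate cultures, the p-values measure only the spread between these libraries, which may be technical.

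p53 is a transcription factor that is kept scarce by the ubiquitin ligase MDM2 and is stabilized after DNA damage and other stresses. It binds paired copies of a short response element near its target genes. Their products halt the cell cycle, repair DNA, trigger apoptosis, tune metabolism, or act back on p53, as MDM2 does. Much of the control of p53 acts on the protein, so the level of its targets is commonly used to gauge its activity.

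The values are FPKM, fragments per kilobase of transcript scaled to the size of the library, as deposited. Read depth is unknown, and between 10975 and 11399 genes per library reached 1 FPKM. Differences were computed on log2(FPKM + 1), which understates the change of genes with low values. The HiSeq libraries were not on an equal scale: the median gene of the 8p libraries lay 0.08 to 0.22 above the average library on the log2 scale, that of 1p XIST at -0.13 and that of the vector library at -0.27. The NextSeq libraries lay between -0.02 and 0.02. Counts in the HiSeq table are therefore also given after the libraries were rescaled to the median gene. XIST was at 3.38 to 4.17 FPKM in No DOX libraries, at 22.0 to 99.0 FPKM in DOX libraries with the transgene and at 0.0705 FPKM in the vector library. Of 10 mesenchymal markers VIM, LGALS1, CD44, SPARC, FN1 and S100A4 were expressed in all 10 libraries, whereas COL3A1 and THY1 were below 1 FPKM in all of them. COL1A1 and COL1A2 passed 1 FPKM only in the NextSeq 12q libraries, COL1A2 in the DOX library alone.

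CDKN2A, which encodes the MDM2 inhibitor ARF, was listed at 0 in all 10 libraries, and TP63 and TP73, which encode related transcription factors, did not exceed 0.0271 FPKM.

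A promoter window of 250 bases before and 50 after an annotated start was taken from RefSeq (GRCh38.p14) for 7 of the 9 genes, with none matched for PHLDA3 and TP53INP1. The windows were searched for a pair of abutting p53 half-sites, with at most 3 departures in 20 bases and the central C and G of each half-site required. The half-site reads the same on both strands, so each window was read once. Such a pair stood in 3 of 13 windows of the 9 genes (23.1 %), those of MDM2 and FAS, and in 11 of 45 windows (24.4 %) of the 36 genes with a window among 42 other direct targets, against 392 of all 35116 windows (1.12 %). This limit on departures was chosen after the windows had been scanned. The stretches of MDM2, FAS and of the further targets RPS27L and SESN1 are shown because they let the pairs of half-sites be compared between genes that act back on p53, in death and in stress signalling, with the paired half-sites in capitals and 10 bases on either side. MDM2 lies at chr12:68808913-68808952 (plus strand, ahead of 2 annotated internal starts), FAS at chr10:88991299-88991338 (plus), RPS27L at chr15:63157517-63157556 (minus) and SESN1 at chr6:109009008-109009047 (minus).
MDM2: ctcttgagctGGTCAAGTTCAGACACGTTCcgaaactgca
FAS: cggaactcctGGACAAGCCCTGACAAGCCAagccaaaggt
RPS27L: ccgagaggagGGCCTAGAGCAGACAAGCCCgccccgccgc
SESN1: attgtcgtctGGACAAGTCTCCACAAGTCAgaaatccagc
The MDM2 and FAS elements have 2 departures each and those of RPS27L and SESN1 have 3. A match is a description of letters and not a binding site, and the absence of one in a window says nothing of p53 there.

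MDM2 and CDKN1A encode the ubiquitin ligase that degrades p53 and the cyclin-dependent kinase inhibitor p21, which arrests the cell cycle. MDM2 (chromosome 12, 67488238 to 67525479 on hg18, the build of all gene positions given here) was at 73.3 FPKM in 8p No DOX and at 103 and 99.9 in 8p DOX, against 24.5 in 1p XIST, 15.5 in 1p vector and 54.1 in 12q. The NextSeq libraries gave 29.6 and 28.1 FPKM for 1p No DOX and DOX, and 60.5 and 68.8 for 12q No DOX and DOX. Thus all 8p libraries lay above all other HiSeq libraries, and both 12q libraries above both 1p libraries. CDKN1A (chromosome 6, 36752215 to 36763095) was at 101 FPKM in 8p No DOX and at 136 and 134 in 8p DOX. It was at 49.2 in 1p XIST, 35.1 in 1p vector and 101 in 12q. The order of 12q and 8p No DOX turned with rescaling, while the 1p libraries were the lowest on both scales. In the NextSeq table CDKN1A was at 63.1 and 56.2 FPKM in 1p No DOX and DOX, and at 120 and 147 in 12q No DOX and DOX.

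BAX, BBC3 and FAS act in cell death. BAX (chromosome 19, 54149929 to 54156867), which permeabilizes mitochondria, was at 184, 173 and 149 FPKM in 8p No DOX and the 2 DOX replicates, 113 in 1p XIST, 67.8 in 1p vector and 121 in 12q. In the NextSeq table BAX was at 186 and 158 FPKM in the 1p libraries and at 211 in both 12q libraries. BBC3 (chromosome 19, 52415919 to 52427863), the BH3-only protein PUMA, was at 27.1, 26.7 and 24.0 FPKM in the 8p libraries, 18.4 in 1p XIST, 14.5 in 1p vector and 26.998 in 12q. Its 12q value fell inside the 8p range, the only overlap among the 9 genes in that table. In the NextSeq table BBC3 was at 7.43 and 6.56 FPKM in 1p and at 14.2 and 13.1 in 12q. FAS (chromosome 10, 90740268 to 90765522), a death receptor at the cell surface, was at 10.7, 7.91 and 8.64 FPKM in 8p, 4.96 in 1p XIST, 2.53 in 1p vector and 6.07 in 12q. In the NextSeq table FAS was at 13.7 and 13.3 FPKM in 1p and at 10.2 and 10.5 in 12q, so that here the 1p libraries were the higher ones.

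PHLDA3 (chromosome 1, 199701245 to 199704922), which holds back AKT signalling, was at 60.0 FPKM in 8p No DOX and at 43.0 and 47.5 in 8p DOX, 26.5 in 1p XIST, 16.2 in 1p vector and 26.4 in 12q. In the NextSeq table it was at 30.1 and 23.9 FPKM in 1p No DOX and DOX and at 34.5 and 22.7 in 12q No DOX and DOX, so that the DOX library was the lower one at each site. TP53I3 (chromosome 2, 24153807 to 24161589), an NADPH-quinone oxidoreductase, was at 18.9, 18.9 and 19.1 FPKM in 8p, 11.3 in 1p XIST, 7.31 in 1p vector and 15.9 in 12q. Its NextSeq values were 13.3 and 13.4 FPKM in 1p and 22.3 and 16.5 in 12q. The 3 8p values of TP53I3 were nearly equal, and both 12q values lay above both 1p values.

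ZMAT3 (chromosome 3, 180217707 to 180272350), an RNA-binding zinc finger protein, was at 17.9, 22.0 and 22.2 FPKM in 8p, 5.65 in 1p XIST, 6.41 in 1p vector and 12.0 in 12q. Its NextSeq values were 12.9 and 13.1 FPKM in 1p and 16.1 and 20.8 in 12q. Here 1p XIST, not the vector library, was the lowest of the HiSeq table. TP53INP1 (chromosome 8, 96007376 to 96030791), a p53 cofactor, was the lowest of the 9, at 3.20, 4.81 and 4.72 FPKM in 8p, 1.07 in 1p XIST, 1.05 in 1p vector and 2.70 in 12q. Its NextSeq values were 2.01 and 2.35 FPKM in 1p and 5.23 and 5.10 in 12q. The vector library had the lowest level of 8 of the 9 genes in the HiSeq table and of 7 after rescaling, with ZMAT3 as the exception in both cases and TP53INP1 in the second. The median gene of that library was also the lowest of the table, at -0.27 on the log2 scale. The share of all genes that were lowest there was not computed.

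**Figure D1:**
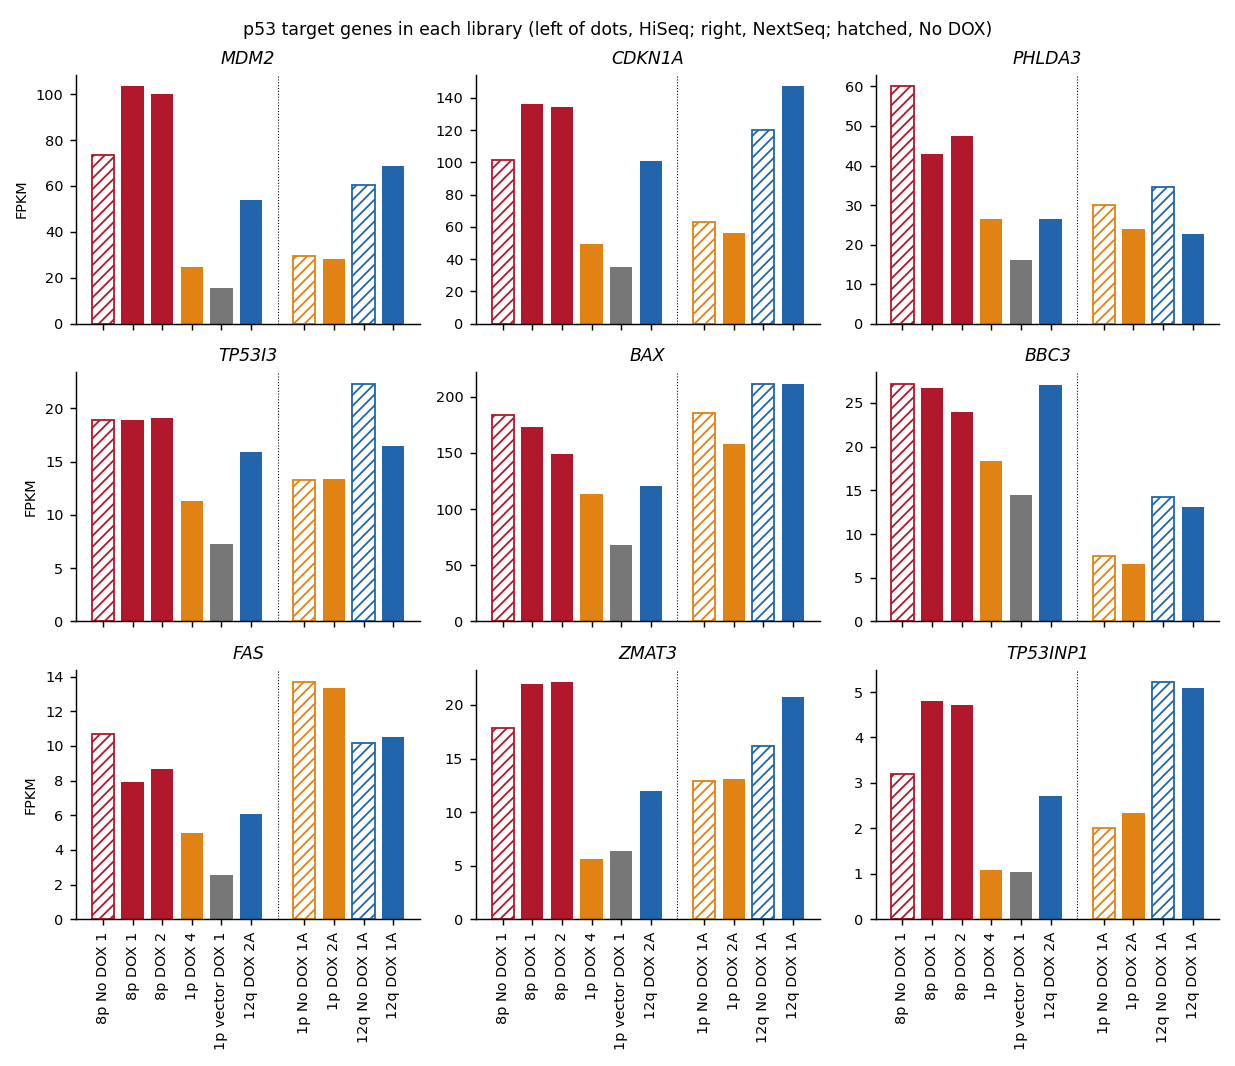
FPKM of the 9 p53 target genes in each of the 10 libraries, 1 bar per library, with No DOX hatched, 8p in red, 1p XIST in orange, 1p vector in grey and 12q in blue. For MDM2 the 8p bars stand between 73.3 and 103 FPKM and the 1p and vector bars of that table at 24.5 and 15.5, and bars are to be compared only on the same side of the dotted line.

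The first comparison asked how the level of p53 targets in the 8p libraries stood to that of the other HiSeq lines (3 libraries against 3). All 9 genes had the higher mean in the 8p libraries, and 2 of them passed the test, PHLDA3 and ZMAT3. MDM2 was at 92.2 ± 16.4 FPKM (SD, n = 3) in the 8p libraries and at 31.3 ± 20.2 (SD, n = 3) in the others, a difference of 1.69 on the log2 scale (SE 0.412, adjusted p = 0.0596). PHLDA3 was at 50.2 ± 8.81 against 23.0 ± 5.91 FPKM (difference 1.11, SE 0.231, adjusted p = 0.0445) and ZMAT3 at 20.7 ± 2.43 against 8.00 ± 3.45 FPKM (difference 1.33, SE 0.261, adjusted p = 0.0403). CDKN1A was at 124 ± 19.5 against 61.7 ± 34.5 FPKM, with an adjusted p of 0.103. The remaining differences were 1.05 for TP53INP1, 0.92 for FAS, 0.78 for BAX, 0.73 for TP53I3 and 0.40 for BBC3, with adjusted p between 0.0663 and 0.269. The median of the 9 differences was 1.05, beside 0.22 for all 11357 genes tested, and relative to that median the 9 differences ran from 0.19 (BBC3) to 1.48 (MDM2). Across all genes 466 were called higher (4.10 %) and 121 lower (1.07 %), a split that became 155 higher and 241 lower after rescaling.

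The 8p values lay above those of all other HiSeq libraries for 8 of the 9 genes, all but BBC3, where 31.8 % of all genes did so. After rescaling this held for 7 genes, without CDKN1A, beside 12.9 % of all genes. Rescaling lowered the median of the 9 differences to 0.85, and 0 of them were then called by limma, with 8 at an unadjusted p below 0.05. The count also depended on the 12q library, the highest of the other 3 for all genes but PHLDA3: without it 8 genes were called (all but BAX), beside 13.7 % of all genes called higher in that fit, and without any other single library 0, beside 0.150 to 2.12 % of all genes. With that library as the only one set against 8p, the median difference was 0.49 and 0 genes were called, 4 of them at an unadjusted p below 0.05. The mesenchymal marker SPARC was called higher too, at 278 ± 50.2 against 107 ± 33.3 FPKM (difference 1.40, adjusted p = 0.0308), and its part in the result was not tested. The level of XIST was set beside these values. 8p No DOX, with XIST at 3.38 FPKM, exceeded 1p XIST DOX, with XIST at 23.8 FPKM, for all 9 genes on both scales. It exceeded 12q DOX, with XIST at 61.9 FPKM, for all 9 genes as deposited and for 7 after rescaling. In the HiSeq DOX libraries XIST was at 99.0 and 89.7 FPKM in 8p, 61.9 in 12q, 23.8 in 1p and 0.0705 in vector. As deposited, MDM2, CDKN1A, BAX and TP53INP1 had this order, and PHLDA3, TP53I3, BBC3, FAS and ZMAT3 did not. After rescaling MDM2 alone had it. The share of all genes with this order was not computed. The part of XIST was not tested. Clone and site cannot be told apart here, and in the comparison with 12q the parental subclone differed as well.

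**Figure D2:**
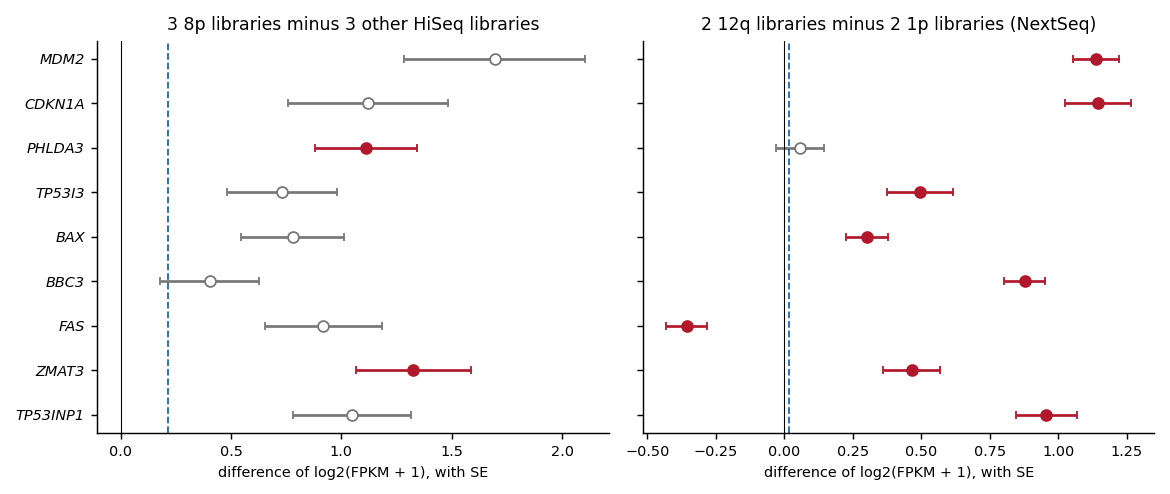
Difference of log2(FPKM + 1) with its SE for each of the 9 genes, 8p against the other HiSeq libraries on the left and 12q against 1p in the NextSeq table on the right. Filled red points passed an adjusted p of 0.05, open points did not, and the dashed blue line is the median of all genes, at 0.22 on the left, left of all 9 points.

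The 42 other direct targets, of which 37 were tested, showed 14 called higher in the 8p libraries and 0 lower. Of all genes 4.10 % were called higher and 1.07 % lower. The median difference of the 37 was 0.85, beside 0.22 for all genes. Of these 37, 33 differences were positive, as were 8546 of all 11357 genes. An unadjusted p below 0.05 from limma was reached by 27 of them and by 3289 of all genes. The genes of cell cycle arrest and repair had the most calls, 7 of 12. PLK2, a stress kinase, was at 155, 153 and 142 FPKM in the 8p libraries and between 19.2 and 36.1 in the others (difference 2.52, SE 0.228, adjusted p = 0.00557). RRM2B, the p53-inducible subunit of ribonucleotide reductase, was at 21.9, 26.0 and 25.6 FPKM against 3.34 to 12.4 (difference 1.94, adjusted p = 0.0438). CCNG1, cyclin G1, differed by 1.60, GADD45A, a growth arrest protein, by 1.40 (adjusted p = 0.00943), FDXR, a mitochondrial reductase, by 1.31 and ABHD4, a lipid hydrolase, by 1.24. One of 9 tested genes of cell death was called, PERP (0.68, named after its value was seen), and so were 3 of 9 of metabolism and stress and 3 of 7 further targets. After rescaling 7 of the 37 were called higher and 1 lower, beside 1.37 % and 2.12 % of all genes. Without single libraries the number called ran from 1 to 22, the last without the 12q library. Of all genes these fits called 0.256 to 15.3 %.

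Genes that act on p53 gave no call in this comparison. Of 19 regulators 16 were tested and 0 passed in the 8p comparison, 6 of them at an unadjusted p below 0.05, and their median difference was 0.05, below the 0.22 of all genes. MDM4, the partner of MDM2 in holding p53 back, was at 5.22, 8.82 and 9.09 FPKM in 8p, 6.10 in 1p XIST, 10.4 in 1p vector and 7.60 in 12q. Its highest HiSeq value was thus in the library with the lowest MDM2, and its difference of -0.06 had an adjusted p of 0.895. PPM1D, a phosphatase that shuts off the p53 response and is itself a p53 target, was at 5.33, 3.79 and 3.62 FPKM in 8p, 2.15 in 1p XIST, 1.30 in 1p vector and 3.67 in 12q (difference 0.68, adjusted p = 0.151).

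The second comparison set 12q against 1p in the NextSeq table (2 libraries against 2, with DOX as a covariate). Here 7 of the 9 genes were called higher in 12q, beside 17.9 % of all 11397 genes tested, and 1 lower, FAS, beside 15.0 %. MDM2 was at 64.7 ± 5.85 FPKM (SD, n = 2) in 12q and at 28.8 ± 1.08 (SD, n = 2) in 1p, a difference of 1.14 (SE 0.0848, adjusted p = 0.00397). CDKN1A was at 133 ± 19.2 against 59.6 ± 4.92 FPKM, also 1.14 (SE 0.121, adjusted p = 0.00694). TP53INP1 was higher by 0.96 and BBC3 by 0.88, whereas TP53I3 (0.49), ZMAT3 (0.47) and BAX (0.30) were higher by less, with adjusted p up to 0.0451. FAS was at 10.3 ± 0.270 against 13.5 ± 0.268 FPKM (difference -0.36, adjusted p = 0.0284). PHLDA3 differed by 0.06, with an adjusted p of 0.640. The median of the 9 was 0.49, beside 0.02 for all genes, and for the 7 called higher both 12q values lay above both 1p values, as they did for 37.7 % of all genes. Rescaling left the counts of higher and lower calls as they were. With a single residual degree of freedom the calls lean on the spread estimated over all genes. Without the 1p No DOX or without the 1p DOX library far fewer calls were left, among the 9 genes as among all genes. With no filter on low values 4 of the 9 were called, all higher in 12q, beside 6.28 % of all genes called higher.

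**Figure D3:**
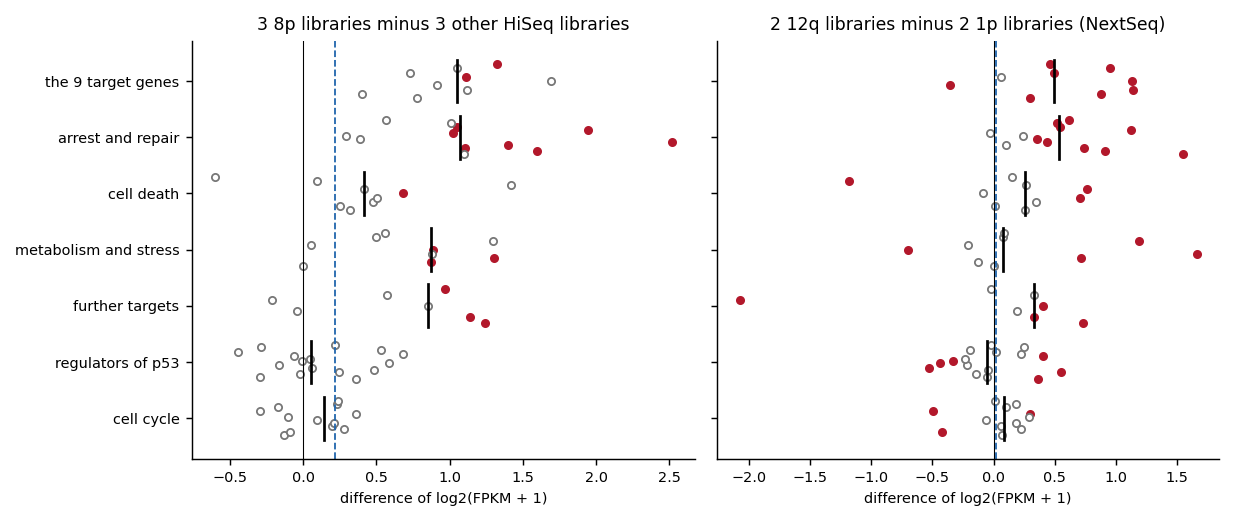
Difference of log2(FPKM + 1) for each tested gene of the p53 lists, 8p against the other HiSeq libraries (left) and 12q against 1p (right). Points filled in red passed an adjusted p of 0.05, black bars are list medians and the dashed line is the median of all genes; the arrest and repair genes have medians of 1.07 and 0.53 and the regulators of 0.05 and -0.05.

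Of the 37 other direct targets tested, 17 were called higher in 12q than in 1p and 3 lower. Of all genes 17.9 % were called higher and 15.0 % lower. The median difference of the 37 was 0.33, beside 0.02 for all genes. Arrest and repair genes again had the most calls, 9 of 12 higher and 0 lower. GDF15, a secreted stress cytokine, was at 178 and 197 FPKM in 12q and at 72.7 and 47.1 in 1p (difference 1.66, SE 0.188, adjusted p = 0.00794). BTG2, an antiproliferative protein, differed by 1.55, SESN1, a sestrin that restrains mTORC1, by 1.19 and RRM2B by 1.12. Among the lower genes were STEAP3, a metalloreductase (-1.18), and PRKAB1, an AMPK subunit (-0.70). Among the 16 regulators tested 3 were higher (MDM4, ATM and CHEK2) and 3 lower (HIPK2, EP300 and CREBBP). This is near the shares of all genes, 17.9 % and 15.0 %. These regulators other than MDM4 were named after their values were seen. MDM4 differed by 0.40 (adjusted p = 0.0349) and PPM1D by 0.22 (adjusted p = 0.137). Without single libraries the other direct targets called numbered 3 to 18, the lowest without the 1p DOX library. Epithelial markers stood out in 1 library: the summed level of 6 markers was 7.53 FPKM in 12q DOX, 2.96 in 12q No DOX, where it was CLDN4 alone, and 1.07 in both 1p libraries, with EPCAM and CDH1 at 2.38 and 1.38 FPKM in the 12q DOX library and at or below 0.0339 FPKM in the other NextSeq libraries. Leaving out single NextSeq libraries, that library included, gave medians of the 9 differences from 0.489 to 0.701. Of the mesenchymal markers 6 were tested, 5 of which were lower in 12q and 1, SPARC, higher, and their summed level was 3431 and 3340 FPKM in 12q against 5056 and 4772 in 1p. The endothelial marker CDH5 was at 7.06 and 5.70 FPKM in 12q and at 0.0545 and 0.0447 in 1p, with PTPRC listed at 0. Their part in the result was not tested.

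The HiSeq table holds 1 library of each of these sites, which allows values but no test. The 12q DOX library exceeded the 1p XIST DOX library for 8 of the 9 genes, with a median difference of 0.53 on the log2 scale beside 0.13 for all genes, of which 63.4 % were higher. After rescaling it did so for 7, without BAX, beside 50.1 % of all genes. MDM2 differed by 1.11 and CDKN1A by 1.02, and PHLDA3, the exception, by -0.0040. These libraries share no sample with the NextSeq ones, though the 12q libraries of both tables (2A in HiSeq, 1A in NextSeq) come from the same site. Among these HiSeq libraries 1p XIST exceeded 1p vector for 8 of the 9 genes, by 0.63 for MDM2, 0.48 for CDKN1A and 0.76 for FAS, the exception being ZMAT3 at -0.16. Their median was 0.57 beside 0.09 for all genes, of which 58.1 % were higher. After rescaling 7 of the 9 were higher, without TP53INP1, beside 47.2 % of all genes.

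The third comparison asked what 5 days of DOX did in the 8p libraries (2 DOX against 1 No DOX). MDM2, CDKN1A, TP53INP1 and ZMAT3 were called higher in the DOX libraries than in the single No DOX library, and PHLDA3 lower. MDM2 went from 73.3 FPKM to 102 ± 2.43 (SD, n = 2), a ratio of 1.39 and a log2 difference of 0.47 (SE 0.0739, adjusted p = 0.0228). CDKN1A went from 101 to 135 ± 1.32 FPKM (0.41, adjusted p = 0.0263), TP53INP1 from 3.20 to 4.76 ± 0.0643 (0.46, adjusted p = 0.0231) and ZMAT3 from 17.9 to 22.1 ± 0.135 (0.29, adjusted p = 0.0485). PHLDA3 went from 60.0 to 45.2 ± 3.15 FPKM (-0.40, SE 0.0922, adjusted p = 0.0418), but after rescaling its difference was -0.29 with an adjusted p of 0.109. FAS stood at -0.33 (adjusted p = 0.0559), BAX at -0.19, BBC3 at -0.10 and TP53I3 at 0.01, none of which passed. The 4 higher genes compare with 11.3 % of all genes called higher and the 1 lower gene with 19.8 % called lower. All genes split into 1286 higher and 2251 lower, and into 2160 higher and 1538 lower after rescaling, when the 4 higher genes were again called. With no filter on low values 0 of the 9 were called by limma, 4 of them at an unadjusted p below 0.05, and with a pseudocount of 0.1 the call of ZMAT3 was lost. The single No DOX library has no replicate and is assumed to vary like the DOX pair, so a DOX difference and a deviation of that library cannot be told apart. Both DOX replicates are set against it, and they had the same direction for 8 of the 9 genes, all but TP53I3, beside 88.2 % of all genes.

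Among 16 tested regulators of p53, 2 were called higher with DOX in the 8p libraries and 4 lower on both scales, which is to be read against the shares of all genes just given. MDM4 was higher by 0.68 (adjusted p = 0.0166, 0.77 after rescaling), whereas PPM1D fell by 0.43 (adjusted p = 0.0269), with a difference of -0.33 after rescaling. Of the 37 other direct targets 4 were called higher and 4 lower, with a median of 0.01 beside -0.06 for all genes. The same shares of all genes apply, and the split turned to 10 higher and 0 lower after rescaling, beside 19.0 % and 13.6 % of all genes. GDF15 went from 127 to 251 and 247 FPKM, a rise of 0.96 (adjusted p = 0.0158). Genes of the G2 and M phases, which p53 and p21 are known to lower indirectly, had lower values: of 12, 10 were called lower, with a median of -0.45. All 12 differences were negative in both DOX replicates, beside 51.4 % of all genes, or 39.5 % after rescaling. FOXM1, a mitotic transcription factor, went from 56.9 to 31.5 and 30.0 FPKM (-0.87, SE 0.0765, adjusted p = 0.0161). BIRC5, or survivin, fell by 0.69 and MKI67, the proliferation marker, by 0.63, and after rescaling 9 of the 12 were called. In bulk RNA fewer cells in these phases and less RNA per cell cannot be told apart. Of the 6 mesenchymal markers tested FN1, SPARC and CD44 were called higher with DOX (by 0.72, 0.47 and 0.48). VIM (0.08), LGALS1 (-0.0035) and S100A4 (-0.06) were not called. The part of these markers in the result was not tested. The level of XIST, DOX itself and the clone cannot be told apart in these libraries, since the vector line has no No DOX library.

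**Figure D4:**
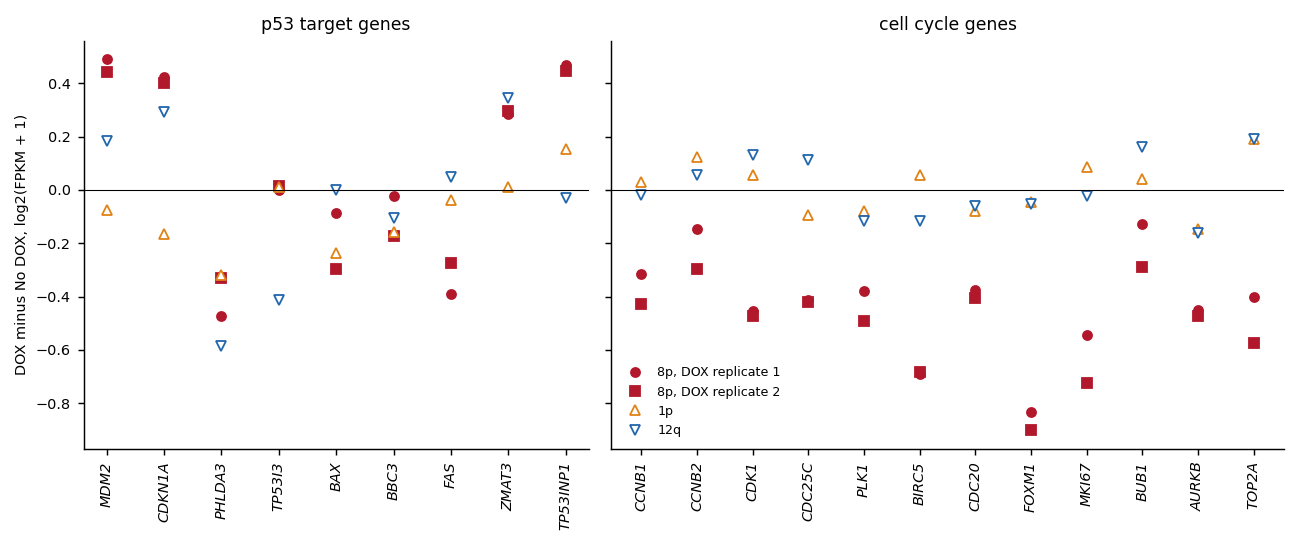
Change of log2(FPKM + 1) from No DOX to DOX for the 9 p53 targets (left) and 12 cell cycle genes (right), with the 8p DOX replicates as filled red points, 1p as orange and 12q as blue open triangles. The cell cycle genes lie below 0 in both 8p replicates and between -0.16 and 0.19 at the other sites, and PHLDA3 lies below 0 in all 4 differences.

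The fourth comparison looked for a DOX effect shared by the 1p and 12q sites (NextSeq, with site as a covariate). None of the 9 genes passed limma's test (0 called), and 1 of 11397 genes was called in all (0.00877 %), with 746 genes at an unadjusted p below 0.05. PHLDA3 was the 1 gene of the 9 at that level, with -0.32 in 1p and -0.58 in 12q and a shared difference of -0.45 (SE 0.0885, limma adjusted p = 0.702). MDM2 changed from 29.6 to 28.1 FPKM in 1p (-0.07) and from 60.5 to 68.8 in 12q (0.18), and CDKN1A by -0.17 and 0.29. ZMAT3 stood at 0.01 in 1p and 0.34 in 12q, and TP53I3 at 0.01 and -0.41. The shared differences of the 9 genes lay between -0.45 and 0.18 with a median of 0.01, beside -0.01 for all genes. Of the 12 cell cycle genes 0 were called, 2 at an unadjusted p below 0.05, and their median was 0.01, and of the other direct targets 0 of 37 were called, 4 of them at that level. The DOX effect in 8p was not tested against that in the other sites, which are in another table.

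Genes of these lists on the arm of an integration were looked at in the line of that site. On 12q, MDM2 lies 41.2 Mb from FAM222A, the host gene (listed as C12orf34), and with DOX it stood at 0.18 on the log2 scale. TRIAP1 stood at 0.04, APAF1 at -0.00088, PRKAB1 at -0.04 and DRAM1 at -0.15, all within 11.1 Mb of it, and GLS2 was below 0.1 FPKM throughout. On 1p, with MACF1 as the host, EPHA2 stood at -0.31, SESN2 at -0.21, SFN at -0.20, PLK3 at -0.18, GADD45A at -0.13, FUCA1 at -0.10, CDC20 at -0.08 and TP73 at -0.02, all from 1 library on either side. At 1p 28 of the 37 other direct targets were lower with DOX, beside a median change of 0 over all genes. At the other sites the 1p genes just named went both ways. SFN, EPHA2, SESN2 and CDC20 were also lower with DOX in 12q and in both 8p replicates. SFN stood at -0.46 in 12q and at -0.34 and -0.32 in the 8p replicates, and EPHA2 at -0.23 in 12q. PLK3 stood at 0.04 in 12q and at 0.26 and 0.22 in the 8p replicates. GADD45A stood at 0.08 in 12q and at 0.36 and 0.24 in the 8p replicates. FUCA1 and TP73 were higher in 12q and lower in 8p, but at low values. TP73 did not exceed 0.0170 FPKM in these libraries, and FUCA1 was at 0.161, 0.133 and 0.127 FPKM in 8p No DOX and the DOX replicates. The cause was not tested. On 8p, with AGPAT5 as the host, the death receptor gene TNFRSF10B lies 16.4 Mb away and went from 32.4 to 28.8 and 26.9 FPKM (-0.16 and -0.26). PHLDA3 is on the other arm of chromosome 1 and TP53INP1 on the other arm of chromosome 8.

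Across all 10 libraries, with each table centred on its own mean, the 9 genes were compared pair by pair. The 36 pairwise correlations of log2(FPKM + 1) ran from 0.39 (BBC3 and FAS) to 0.98 (MDM2 and CDKN1A) with a median of 0.85. The points share lines and, in the HiSeq table, the scale differences given above, and the values are a description. Among 6904 genes the 3 most like CDKN1A were KIAA1598, DAB2 and CPNE1, each with r of 0.985 over the 10 libraries, and MDM2 came next at rank 4 with 0.982. The median r with CDKN1A was 0.45 over all these genes, and 704 of them (10.2 %) had an r with it above 0.85, the median of the 36 pairs. Most of the 36 pairs do not include CDKN1A, and no background was computed for them. BBC3, TP53I3 and ZMAT3 stood at ranks 254 to 296 and BAX at 743. DAB2, an endocytic adaptor, ran from 5.30 FPKM in 1p vector to 15.6 in the first 8p DOX replicate. PHLDA3 (0.656) and FAS (0.581) followed CDKN1A least closely.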

How the data were processed

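Poly(A) RNA-seq was analysed in 10 libraries, and 6 ChIP-seq samples of the series were not used here. According to the submitters' notes and the methods, the authors aligned reads to hg18 (TopHat, Bowtie), ran Cufflinks for FPKM and deposited a HiSeq and a NextSeq table. Versions and annotation are not given in the sources used here. FPKM are scaled to library size and transcript length, so depth is unknown and no counting intervals could be given. Lines with a repeated symbol (739 HiSeq, 882 NextSeq), symbols turned into dates (22 in each) or no value (2 NextSeq) were left out. Positions are those of the HiSeq table, with starts raised by 1.

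Groups followed the labels. Each table was tested alone on log2(FPKM + 1) for genes with a mean of at least 1 FPKM, with limma 3.58.1 in R 4.3.3 (lmFit, eBayes with trend, Benjamini-Hochberg over all genes tested), and called at adjusted p below 0.05. The fit of 8p DOX against No DOX used all 6 HiSeq libraries in 5 groups. Residual degrees of freedom were 1, except 4 for 8p against the other lines. The fits were tested on simulated data. Alternatives were a pseudocount of 0.1, no filter, a mean of at least 5 FPKM, libraries rescaled to the median gene, eBayes without trend, fewer libraries and no covariate. Other values came from Python 3.11.15 (numpy 2.4.6, pandas 2.3.3, matplotlib 3.10.9).

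The 9 genes and the other lists were chosen with earlier results of these data known. All 9 genes and MDM4, CDKN2A and PPM1D were always named. In addition the up to 6 genes of the p53 lists with the largest difference among those called in a comparison, the listed genes on the arm of an integration and the 3 genes most like CDKN1A (mean of at least 5 FPKM in each table) were named. Some genes that this rule would name are not reported here.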

Additional observations from a re-analysis of the deposited data

Results flagged for a closer look

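For 5 of the 9 genes the single DOX and No DOX libraries differed in opposite directions at the 1p and 12q sites of the NextSeq table. The DOX change at 12q minus that at 1p, on the log2(FPKM + 1) scale, was 0.457 for CDKN1A, 0.256 for MDM2 and 0.0862 for FAS. It was -0.182 for TP53INP1 and -0.424 for TP53I3. Some of the changes were small: TP53I3 stood at 0.01 at 1p, FAS at -0.04 at 1p and 0.05 at 12q, and TP53INP1 at -0.03 at 12q. The share of all genes with opposite directions was not computed. Each change rests on 1 library per condition, the 1p libraries carry different names (1A and 2A), and the difference was not tested.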

How the results depend on the processing

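Over all alternatives, 62 single-gene results kept direction and side of the threshold and 25 lost their call in 12q against 1p. In 8p against the other lines 91 kept both, 18 lost a call and 6 gained one. In 8p DOX 61 were counted as unchanged, 7 lost a call and 2 gained one. These 61 include the fits without either 8p DOX replicate, which have no test and were judged by the size of the difference alone. TP53I3, at 0.0058 in the main fit, stood at -0.0018 with the first replicate alone. In the DOX comparison at 1p and 12q all 53 kept both. With no filter on low values limma called 0 genes in 8p DOX (5 before, 4 now at an unadjusted p below 0.05), 0 in 8p against the other lines (2 before, 8 now at that p) and 4 in 12q against 1p (8 before). Without the trend 5 were called in 12q against 1p. In 8p against the other lines 0 were called after rescaling (8 at an unadjusted p below 0.05), 0 with DOX libraries only (7) and 0 with 12q alone (4), where the median was 0.486 and BBC3 turned to -0.0578. Leaving out 1 library gave 0 to 8 calls there, with medians of 0.792 to 1.22, and 1 to 7 calls in 12q against 1p, with medians of 0.489 to 0.701. PHLDA3 then ran from -0.234 (without 12q No DOX) to 0.350 (without 12q DOX) and was -0.102 without 1p DOX. The 8p DOX median moved from 0.0058 to -0.0461 at 5 FPKM and to 0.117 after rescaling, where BBC3 turned to 0.0152. TP53INP1 drops out at 5 FPKM, and for the other changes the cause was not tested.

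Of all genes 3537 were called in 8p DOX (15 with no filter), 587 in 8p against the other lines (320 with no filter, 264 with 12q alone, 29 to 1737 without 1 library, the lowest without the first 8p DOX replicate) and 3742 in 12q against 1p (1971 with no filter, 322 to 3758 without 1 library, the lowest without 1p DOX). The DOX comparison at 1p and 12q called 1, 2 without the trend, and 0 with no filter (858 at an unadjusted p below 0.05) or no site term (58). Other direct targets fell from 8 to 0 (13 at that p) in 8p DOX and from 14 to 3 in 8p against the other lines with no filter, where they were 8 after rescaling and 2 with 12q alone. Cell cycle genes fell from 10 to 0 (9 at that p) in 8p DOX and from 3 to 1 in 12q against 1p with no filter, with 0 to 4 without 1 library. Leaving out NextSeq libraries, 12q alone and the list counts were chosen after seeing the data. Fits that leave 1 sample in an arm assume that it varies like the others, and without either 8p DOX replicate the DOX difference has no test. No paired analysis was possible because groups compared here share fewer than 2 replicate numbers, and the site term of the DOX comparison at 1p and 12q pairs libraries by site alone. Depth is unknown, so low genes such as TP53INP1 have no counting interval.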

Other observations

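A few p53 targets too low for the tests stood apart in the 12q libraries and were picked after their values were seen. SPATA18, a mitophagy gene, was at 0.611 FPKM in the HiSeq 12q library and at 0.927 and 0.878 in the NextSeq 12q libraries, and it was listed at 0 in the 7 other libraries. FUCA1, a lysosomal fucosidase, was at 0.965 and 1.21 FPKM in the NextSeq 12q libraries and at or below 0.277 in the other 8. The endothelial cadherin gene CDH5 had 5.44, 7.06 and 5.70 FPKM in the 3 12q libraries and at most 0.835 elsewhere, while PTPRC, the pan-leukocyte marker, was listed at 0 in all 10.

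Not all targets were lower in the vector library than in 1p XIST. GDF15 was at 128 FPKM there and at 54.9 in 1p XIST. As deposited, 11 of the 37 other direct targets were higher in the vector library, CCNG1 and GADD45A among them. The other 26 were higher in 1p XIST, as were 58.1 % of all genes, or 47.2 % after rescaling. These targets were not counted after rescaling. Each value rests on a single library and the difference was not tested.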
